A study of Mus musculus with 12 samples.

Results

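The Rab GTPases were described as the protein-coding genes whose GENCODE symbol is Rab followed by a number, an optional letter and an optional digit. This rule, which used no measured value, found 59 genes among the 53715 genes of the count matrix. RNA was sequenced from 12 libraries of mouse liver cells of the strain C57BL/6JOlaHsd, in 3 groups of 4 biological replicates. Hepatoblasts were Dlk1+ cells taken from embryonic livers at E14.5 by magnetic separation and lysed directly. Diff. hepatocytes were such E14.5 cells after 4 days on fibronectin in differentiation medium with dexamethasone and Matrigel. Mature hepatocytes came from livers of male mice aged 8 to 12 weeks by collagenase perfusion and were lysed directly. Embryonic livers were pooled for an isolation, and the hepatoblast group was an enriched Dlk1+ fraction, so RNA of other liver cells can be part of a library. The comparisons follow the Rab genes from the embryonic progenitor to the cell differentiated in culture, and set both against the adult cell.

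Rab proteins are small GTPases that switch between a GDP-bound form in the cytosol and a GTP-bound form on a membrane. Each acts on a limited set of organelles, where the GTP-bound form binds effectors such as motors, tethers and sorting adaptors. In hepatocytes, Rab-directed transport carries secreted proteins to the blood side and membrane proteins to the bile canaliculus, the apical lumen between neighbouring hepatocytes.

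The libraries held 19581551 to 25216977 counts on genes. Albumin (Alb) had a mean of 37733 CPM in hepatoblasts, 40200 in Diff. hepatocytes and 95132 in the adult cells, and alpha-fetoprotein (Afp), the fetal liver protein, had 39313, 18597 and 42.3 CPM. CPM are counts per TMM-scaled library size, as edgeR gives them. Hepatoblasts replicate 1 stood apart. Its summed level of granulocyte and mast cell markers was 457 CPM, against 32.5 to 52.4 in the other 3 hepatoblast libraries, and of erythroid markers 3030 CPM against 441 to 664. Of the 53 Rab genes with enough counts to test, 5 set this library apart from its group: Rab44, Rab8b, Rab27a and Rab32 lay above and Rab34 below the other 3 libraries. The Diff. hepatocytes library that carries the same number had the highest granulocyte and mast cell sum of its group, 98.9 CPM, against 6.35 to 57.4 in the others. Where hepatoblasts replicate 1 decided a value, the value without it is given beside it. In bulk RNA, fewer cells of a type and less RNA per cell cannot be told apart.

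Levels were compared between genes only per length, as RPKM over the union of a gene's exons in all its transcripts. This union can be longer than any single transcript. For Rab14 it is 13589 bases and the longest transcript 5003, while for Rab35 both are 2820. Orders and counts by RPKM, such as the place of Rab14 beside Rab35, rest on this choice of length. Rab1a, Rab1b, Rab7, Rab5c and Rab2a were the 5 highest members in every group and made up 48.6%, 48.8% and 49.4% of the summed Rab RPKM in hepatoblasts, after culture and in the adult cell. In hepatoblasts Rab1a, which acts in transport from the endoplasmic reticulum to the Golgi, stood first with 59.1 ± 7.42 RPKM (SD, n = 4), followed by Rab1b at 49.6 ± 3.84, Rab7 at 45.8 ± 3.04 and Rab5c at 40.5 ± 4.07. Neighbours among these 4 overlapped in their libraries. In Diff. hepatocytes Rab7, which directs late endosomes to lysosomes, stood first with 81.4 ± 8.67 RPKM and overlapped with no other member, ahead of Rab1a at 51.4 ± 1.89. In mature hepatocytes Rab1b, at 75.9 ± 9.22, and Rab5c, an early endosome Rab at 67.0 ± 3.96, stood first and second and overlapped. Rab2a, of the Golgi and intermediate compartment, was at 32.6 ± 3.89 RPKM in hepatoblasts, 41.2 ± 2.69 after culture and 44.5 ± 2.09 in the adult cell.

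**Figure D1:**
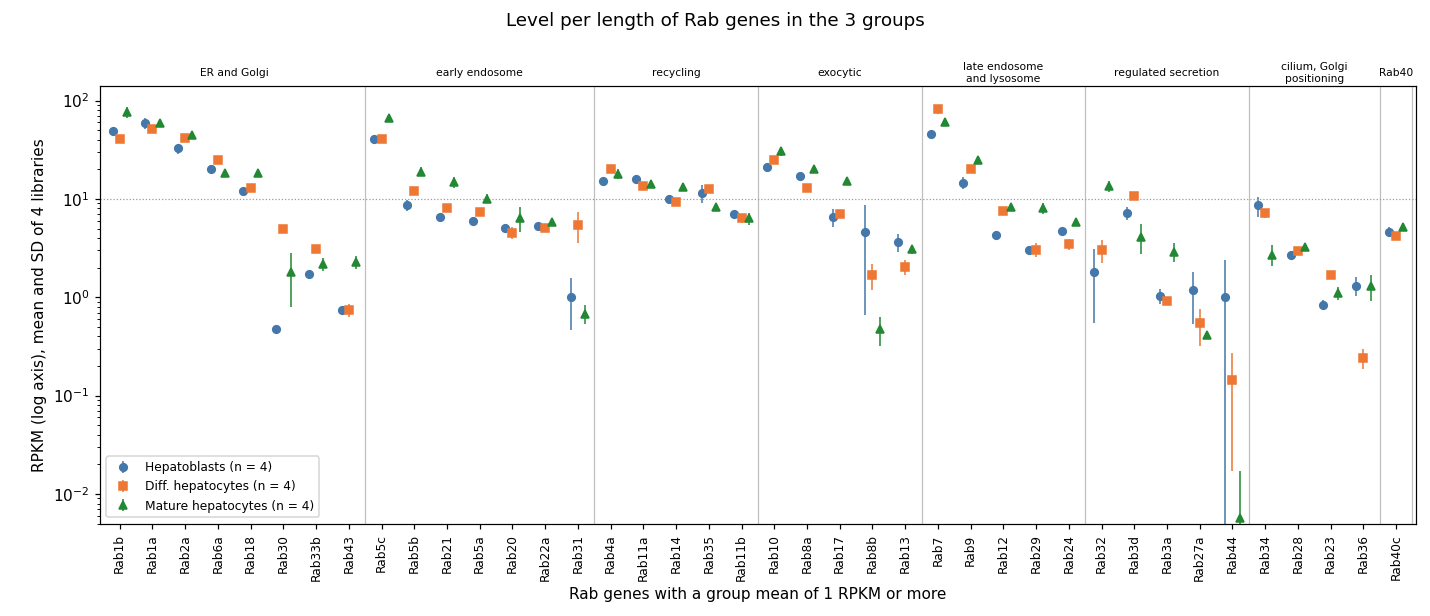
Mean RPKM with SD (n = 4 libraries) on a log axis for the 40 Rab genes that reached 1 RPKM in a group, in blocks by role, with a dotted line at 10 RPKM. Rab1a, Rab1b, Rab7, Rab5c and Rab2a stand highest in each group, while Rab30, Rab31, Rab32, Rab8b, Rab44 and Rab36 show wide gaps between groups; the SD of Rab44 in hepatoblasts runs below the axis.

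Of the 59 members, 13 reached 10 RPKM in hepatoblasts, 15 after culture and 18 in the adult cell, while 22, 24 and 23 stayed under 1 RPKM. Summed over all members, the level was 468 ± 17.1 RPKM in hepatoblasts, 524 ± 11.7 in Diff. hepatocytes and 620 ± 37.3 in the mature cells. As a share of all counts on genes the order was the reverse, with 0.209 ± 0.00864%, 0.185 ± 0.00805% and 0.149 ± 0.00427%. The 2 measures differ in scaling: the TMM factors were 1.23 to 1.44 in hepatoblasts, 1.03 to 1.08 in Diff. hepatocytes and 0.677 to 0.778 in mature hepatocytes. The direction of the family's sum therefore depends on the scaling.

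Rab35, a recycling Rab that also acts in actin organisation and in the delivery of apical membrane, was the family member that the study took from its siRNA screen into further experiments. In the RNA it was at 42.4, 27.6, 30.3 and 28.9 CPM in the 4 hepatoblast libraries, at 36.9, 33.8, 38.0 and 32.4 CPM in Diff. hepatocytes, and at 21.7, 24.8, 23.0 and 24.8 CPM in mature hepatocytes. Hepatoblasts and Diff. hepatocytes overlapped only through hepatoblasts replicate 1, since the other hepatoblast libraries, at 27.6 to 30.3 CPM, lay below all cultured libraries. Every mature library lay below every library of the other 2 groups. Per length it was 13th of the 59 members in hepatoblasts and in Diff. hepatocytes and 19th in mature hepatocytes, with 11.5 ± 2.42, 12.5 ± 0.921 and 8.36 ± 0.539 RPKM. Its neighbours in that order, Rab18 above and Rab14 below in hepatoblasts and Rab18 and Rab5b in Diff. hepatocytes, overlapped with it. Calls below need an adjusted p under 0.01 and a log2 fold change over 1 in size. Rab35 was called in no comparison with TMM scaling. Its log2 fold change was 0.13 ± 0.12 (SE) in Diff. hepatocytes against hepatoblasts (adjusted p = 0.406), -0.46 ± 0.13 in mature hepatocytes against hepatoblasts (adjusted p = 0.00552) and 0.58 ± 0.13 in Diff. against mature hepatocytes (adjusted p = 0.00127). Without hepatoblasts replicate 1, its highest library, the first of these was 0.29 (adjusted p = 0.00913). Scaled by library totals, the difference between mature hepatocytes and hepatoblasts was -1.32 and that between Diff. and mature hepatocytes 1.11, both then called. The median over all genes shifts with that scaling, and relative to that median the value against hepatoblasts was -0.30 with TMM and -0.32 with library totals.

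The study's siRNAs against Rab35 are printed because they fix which part of the transcript the perturbation addressed. Rab35 lies on chromosome 5 from 115631908 to 115647736 on the plus strand of GRCm38. Each guide strand is given 5′ to 3′ without its overhang, with the seed, bases 2 to 8, in capitals. All 6 matched the 3′ untranslated part of exon 6 exactly.
siRNA 1 (chr5:115647020-115647038): aAAUCUAAaacacauuaug
siRNA 2 (chr5:115645841-115645859): aAUUCUUUaaauaacggca
siRNA 3 (chr5:115647119-115647137): aUUGAUUGaaaacccaucc
siRNA 4 (chr5:115646474-115646492): uAAAAUGCuccuccuugcg
siRNA 5 (chr5:115646526-115646544): aUAAUCGUgaggaacuuag
siRNA 6 (chr5:115646980-115646998): gUUACGUGauccuucaggg

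The 6 seeds differ from each other. The closest site in any other Rab transcript had 3 mismatches, for siRNA 2 in Rab7, and 4 or 5 for the others. The screen covered 14 Rab genes with 6 siRNAs each, 84 in all, of which 81 matched their own gene exactly, 63 in a 3′ untranslated region and 18 in coding sequence. Of the 81, 76 matched no other gene. The exceptions were 4 siRNAs to Rab4b that also matched Gm21983, an annotated gene that shares its exons, and 1 to Rab11a that matched Gm47308.

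The first comparison asked which Rab genes differed between E14.5 hepatoblasts and such cells after 4 days of differentiation culture. Only Diff. hepatocytes were cultured, so plating, the medium with dexamethasone and differentiation cannot be told apart. Of 53 members with enough counts to test, 4 were higher and 1 lower in Diff. hepatocytes, 9.43%, where 28.9% of all 17779 genes tested were called, 14.9% of all genes higher. The median log2 fold change was 0.11 over the 53 members and -0.01 over all genes. In 25 of the 53 the 4 libraries of one group lay wholly outside the other, against 57.5% of all genes. The remaining 6 members, Rab19, Rab33a, Rab39, Rab39b, Rab9b and Rab3c, had at most 9 counts in any library and were not tested.

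Among the endoplasmic reticulum and Golgi Rabs, 2 of 10 tested were higher. Rab30, a Golgi Rab, was at 4.58, 4.92, 4.47 and 4.60 CPM in hepatoblasts and at 43.7, 49.1, 44.2 and 52.7 CPM in Diff. hepatocytes. The 2 groups were far apart, with a fitted fold of 10.2 (log2 fold change 3.35 ± 0.30, adjusted p = 7.01e-07). Rab6b, the isoform of Rab6 best known from neurons, was also higher (1.55 ± 0.31, adjusted p = 8.62e-04) but stayed at 1.55 to 1.91 CPM. Its abundant paralog Rab6a, which acts in retrograde Golgi transport, was at 74.5 ± 5.72 and 93.2 ± 6.14 CPM and was not called.

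Of the 7 early endosome Rabs, Rab31 was higher. This relative of Rab22a works between the Golgi and endosomes. It was at 6.96, 3.37, 3.07 and 2.12 CPM in hepatoblasts and at 31.0, 16.1, 19.6 and 16.0 CPM in Diff. hepatocytes, with replicate 1 highest in both groups and no overlap (2.41 ± 0.33, adjusted p = 3.51e-05). Without both libraries numbered 1 the log2 fold change was 2.60. Macrophage marker sums were also highest in replicate 1 of both groups, at 257 and 204 CPM. The other libraries had 69.6 to 80.5 CPM in hepatoblasts and 26.9 to 93.8 CPM in Diff. hepatocytes. Mesenchymal and stellate sums were 674 to 1306 CPM in hepatoblasts, where replicate 1 was lowest. In Diff. hepatocytes these sums were 1179 to 2921 CPM, and replicate 1 was highest. Within this list Col1a1, Col1a2, Col3a1, Dcn, Des and Acta2 had higher means after culture. Pdgfra (18.8 and 15.1 CPM), Pdgfrb (19.9 and 14.6) and Lrat (2.12 and 1.09) had lower means in Diff. hepatocytes than in hepatoblasts. The part of macrophages and of mesenchymal and stellate cells was not tested. Rab22a itself was at 38.2 ± 3.24 and 36.2 ± 1.87 CPM.

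Among 8 recycling Rabs, Rab15, known for endosomal recycling in neurons, was higher at low level, from 0.258 to 0.686 CPM to 1.04 to 3.20 CPM (1.76 ± 0.41, adjusted p = 0.00248). Its highest library was Diff. hepatocytes replicate 1, and without both libraries numbered 1 the call was lost (1.10, adjusted p = 0.0112). No exocytic Rab was called. Rab8b, which takes part in exocytosis, was at 50.2, 16.0, 11.1 and 10.8 CPM in hepatoblasts and at 10.8, 8.65, 6.93 and 5.42 CPM in Diff. hepatocytes. The highest cultured library lay just under the lowest hepatoblast library (-1.47 ± 0.45, adjusted p = 0.0119). Without hepatoblasts replicate 1 the value was -0.66 (adjusted p = 0.0347).

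The lower member was Rab36, a relative of Rab34 that binds Golgi and late endosome effectors. It was at 5.70, 8.56, 9.93 and 8.25 CPM in hepatoblasts and at 1.43, 1.98, 1.24 and 1.28 CPM in Diff. hepatocytes. All cultured libraries lay below all hepatoblast libraries (-2.45 ± 0.25, adjusted p = 2.41e-06). Of the other 3 cilium and Golgi positioning Rabs, Rab23, which acts in Hedgehog signalling, had a log2 fold change of 1.00 ± 0.13 and missed the fold limit (adjusted p = 2.06e-05). None of 7 late endosome and lysosome Rabs was called, although Rab7, at 109, 120, 121 and 129 CPM in hepatoblasts and 188, 243, 210 and 208 CPM in Diff. hepatocytes, did not overlap (0.83 ± 0.10, adjusted p = 8.72e-06). None of 10 regulated secretion Rabs was called. There the value for Rab32, which directs cargo to lysosome-related organelles, turned on hepatoblasts replicate 1: 0.74 (adjusted p = 0.0816) with it and 1.37 (adjusted p = 5.53e-05) without it. Without that library 7 members were higher, Rab25, Rab27b and Rab32 in addition. Of these, Rab25 passed the count filter only through Diff. hepatocytes libraries.

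**Figure D2:**
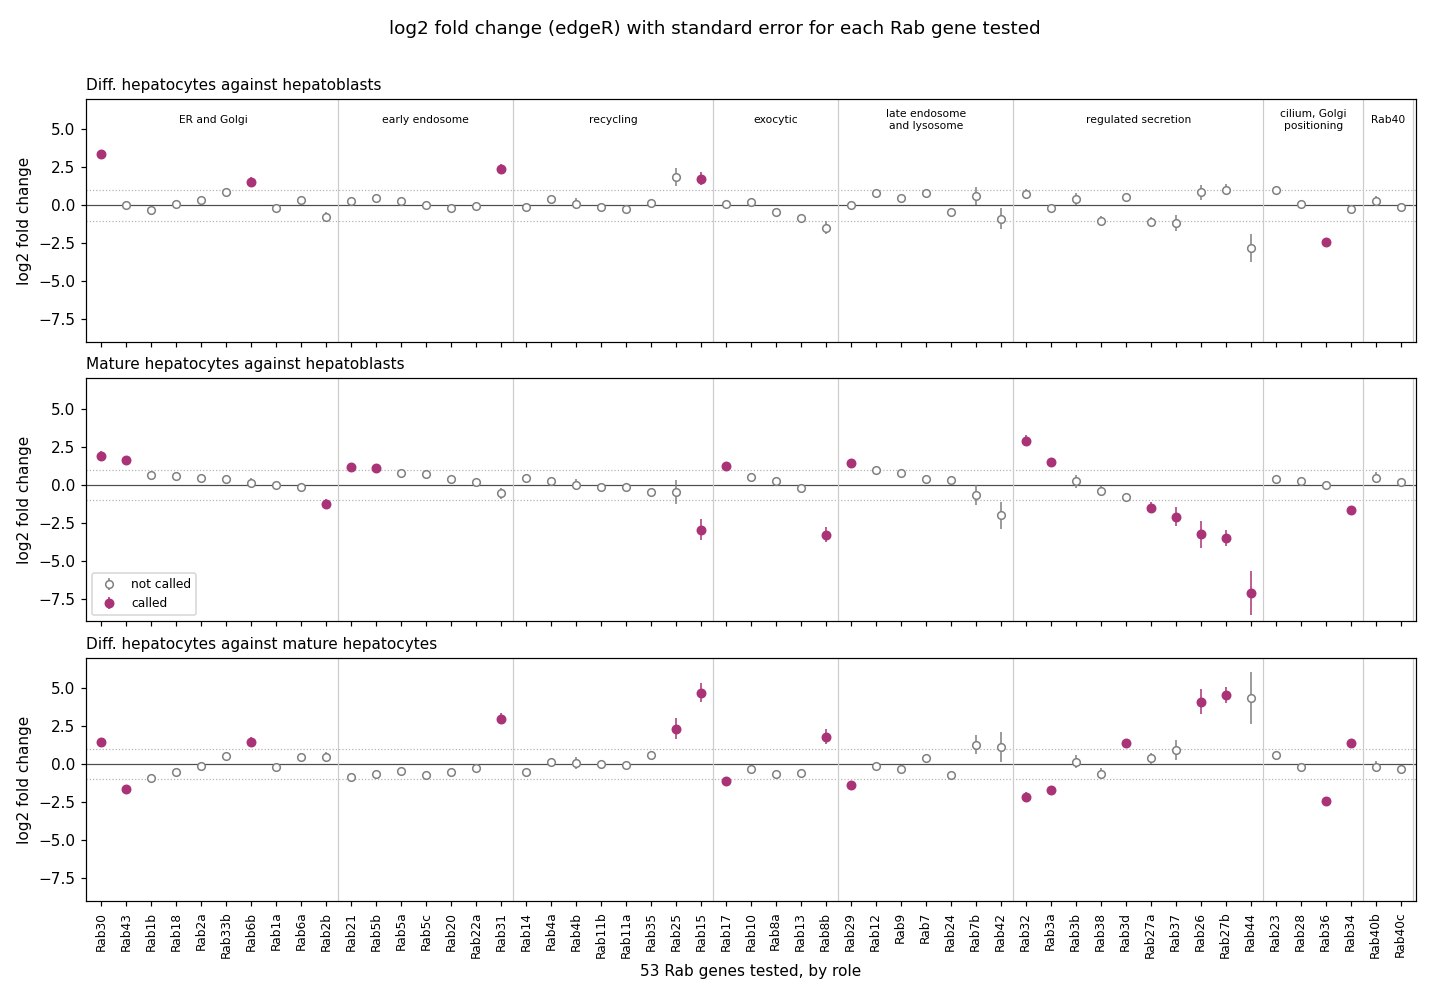
log2 fold change with standard error (edgeR) for the 53 Rab genes tested, in blocks by role, for the 3 comparisons; filled points were called and dotted lines mark a log2 fold change of 1 and -1. Called members number 5 in the first panel, 17 in the second and 16 in the third.

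The second comparison set the adult cell against the embryonic progenitor. The adult cells came from male mice by collagenase perfusion and the hepatoblasts from pooled embryonic livers by magnetic separation. Age, sex and isolation can therefore not be told apart. Here 8 members were higher and 9 lower of 53, 32.1%, where 44.8% of all genes tested were called, 20.1% higher and 24.7% lower. The median log2 fold change was 0.23 over the members and -0.15 over all genes, and 33 of 53 members did not overlap between the groups, against 66.0% of all genes. The higher members belonged to 5 roles and so did the lower members, of which 5 were among the 10 regulated secretion Rabs tested, where 2 were higher. With library totals in place of TMM the split was 2 higher and 16 lower, and the median over all genes moved from -0.15 to -0.9998. Rab30 and Rab32 were the 2 members still called higher.

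Rab32 had the largest rise. It was at 8.64, 2.39, 2.75 and 3.15 CPM in hepatoblasts and at 31.6, 26.7, 35.8 and 32.3 CPM in mature hepatocytes, with no overlap (2.90 ± 0.35, adjusted p = 6.41e-06). Without hepatoblasts replicate 1 it was 3.51. Rab3a, a Rab of secretory vesicles, was at 1.70 to 2.58 CPM in hepatoblasts and 4.73 to 8.00 CPM in mature hepatocytes (1.51 ± 0.20, adjusted p = 1.45e-05).

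Both higher endoplasmic reticulum and Golgi Rabs, Rab30 and Rab43, did not overlap between the groups. Rab30 was at 31.0, 17.6, 8.52 and 12.7 CPM in mature hepatocytes, and 1.91 ± 0.29 above hepatoblasts on the log2 scale (adjusted p = 5.62e-05). Rab43 was at 3.77, 4.56, 4.17 and 3.74 CPM in hepatoblasts and 11.4, 11.4, 12.2 and 15.5 CPM in mature hepatocytes (1.63 ± 0.15, adjusted p = 4.88e-07). Of its 75-base stretches, 74.2% also occur in other annotated genes, chiefly Gm45140 on the same strand, so how reads were divided between them is uncertain.

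Of the early endosome Rabs, Rab21 and Rab5b were higher. Rab21, which moves integrins through endosomes, was at 33.7, 32.7, 32.8 and 34.0 CPM in hepatoblasts and 81.5, 62.8, 73.0 and 82.3 CPM in mature hepatocytes (1.17 ± 0.09, adjusted p = 6.41e-08). Rab5b was at 30.1, 36.0, 37.9 and 41.5 CPM and at 76.6, 74.8, 75.6 and 92.3 CPM (1.13 ± 0.10, adjusted p = 3.15e-07). In both genes the lowest mature library lay well above the highest hepatoblast library. The other isoforms of Rab5 did not reach the fold limit, with 0.76 for Rab5a and 0.73 for Rab5c.

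Rab17, an epithelial Rab of transcytosis and apical recycling, was at 9.60, 12.5, 15.2 and 15.1 CPM in hepatoblasts and 30.5, 29.3, 28.5 and 32.5 CPM in mature hepatocytes (1.20 ± 0.13, adjusted p = 1.85e-06). Rab29, which acts at the Golgi and on lysosomes, was at 4.38, 4.92, 4.01 and 4.60 CPM and at 11.4, 13.9, 11.8 and 10.2 CPM (1.40 ± 0.15, adjusted p = 1.85e-06). Neither overlapped between the groups.

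Among the lower members, Rab44 held 487, 87, 33 and 35 counts in the hepatoblast libraries, or 15.7, 2.60, 1.07 and 1.16 CPM, and 0, 0, 2 and 0 counts in mature hepatocytes. It is a large Rab known from granules of mast cells and other blood cells. The ratio of these counts, scaled as for CPM, hepatoblasts over mature hepatocytes, was 162 (exact 95% interval 44.7 to 1341), and 52 (14.1 to 433) without hepatoblasts replicate 1. These intervals cover counting error only. Rab8b was at 3.02, 1.73, 2.68 and 1.55 CPM in mature hepatocytes, below all 4 hepatoblast libraries (-3.29 ± 0.50, adjusted p = 5.16e-05), and -2.50 without hepatoblasts replicate 1. Its paralog Rab8a, at 80.9 ± 3.49 and 94.7 ± 5.18 CPM, was not called.

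Rab27a, which docks secretory granules at the plasma membrane, was at 8.25, 3.43, 3.40 and 3.15 CPM in hepatoblasts and 1.78, 1.54, 1.52 and 1.55 CPM in mature hepatocytes (-1.51 ± 0.35, adjusted p = 0.00169). Without hepatoblasts replicate 1 it was -1.06 (adjusted p = 0.00276). Its paralog Rab27b had 0.563 to 2.87 CPM in hepatoblasts and 0.117 to 0.186 CPM in mature hepatocytes (-3.53 ± 0.54, adjusted p = 5.02e-05). Both lay lower in all mature libraries. The 5 members of this role that were lower, Rab27a, Rab27b, Rab44, Rab26 and Rab37, stand beside granulocyte and mast cell marker sums of 32.5 to 457 CPM in hepatoblasts and 5.52 to 6.99 CPM in mature hepatocytes, where 2 of the markers were at 0 in every library. Megakaryocyte and platelet marker sums, at 13.4 to 59.9 CPM in hepatoblasts and 21.4 to 66.6 after culture, were 3.29, 3.97, 4.32 and 5.003 CPM in the mature libraries, in rising order. The part of those cells in these differences was not tested.

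Rab34, needed for cilium formation, was at 13.4, 23.2, 22.1 and 23.3 CPM in hepatoblasts and 4.39, 7.50, 6.30 and 7.76 CPM in mature hepatocytes, with no overlap (-1.66 ± 0.20, adjusted p = 6.27e-06), and -1.82 without hepatoblasts replicate 1. Mesenchymal and stellate markers, which summed to 674 to 1306 CPM in hepatoblasts, summed to 51.2 to 74.0 CPM in mature hepatocytes, and their part was not tested. The other lower members were at low levels. Rab26 held 25 counts over the hepatoblast libraries and 1 over the mature libraries, a scaled ratio of 12.6 (exact 95% interval 2.07 to 518). Rab15, Rab37 and Rab2b were at 0.522 ± 0.187, 0.763 ± 0.384 and 1.87 ± 0.412 CPM in hepatoblasts and 0.0623 ± 0.0479, 0.174 ± 0.109 and 0.788 ± 0.364 CPM in mature hepatocytes. The call of Rab26 was lost without hepatoblasts replicate 2 or mature hepatocytes replicate 1, 3 or 4, and that of Rab2b without hepatoblasts replicate 3 or 4 or mature hepatocytes replicate 2 or 4. The call of Rab37, whose groups overlapped, was lost without hepatoblasts replicate 1, 2 or 3 or mature hepatocytes replicate 1, 3 or 4. Adjusted p was then 0.0104 to 0.0238.

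**Figure D3:**
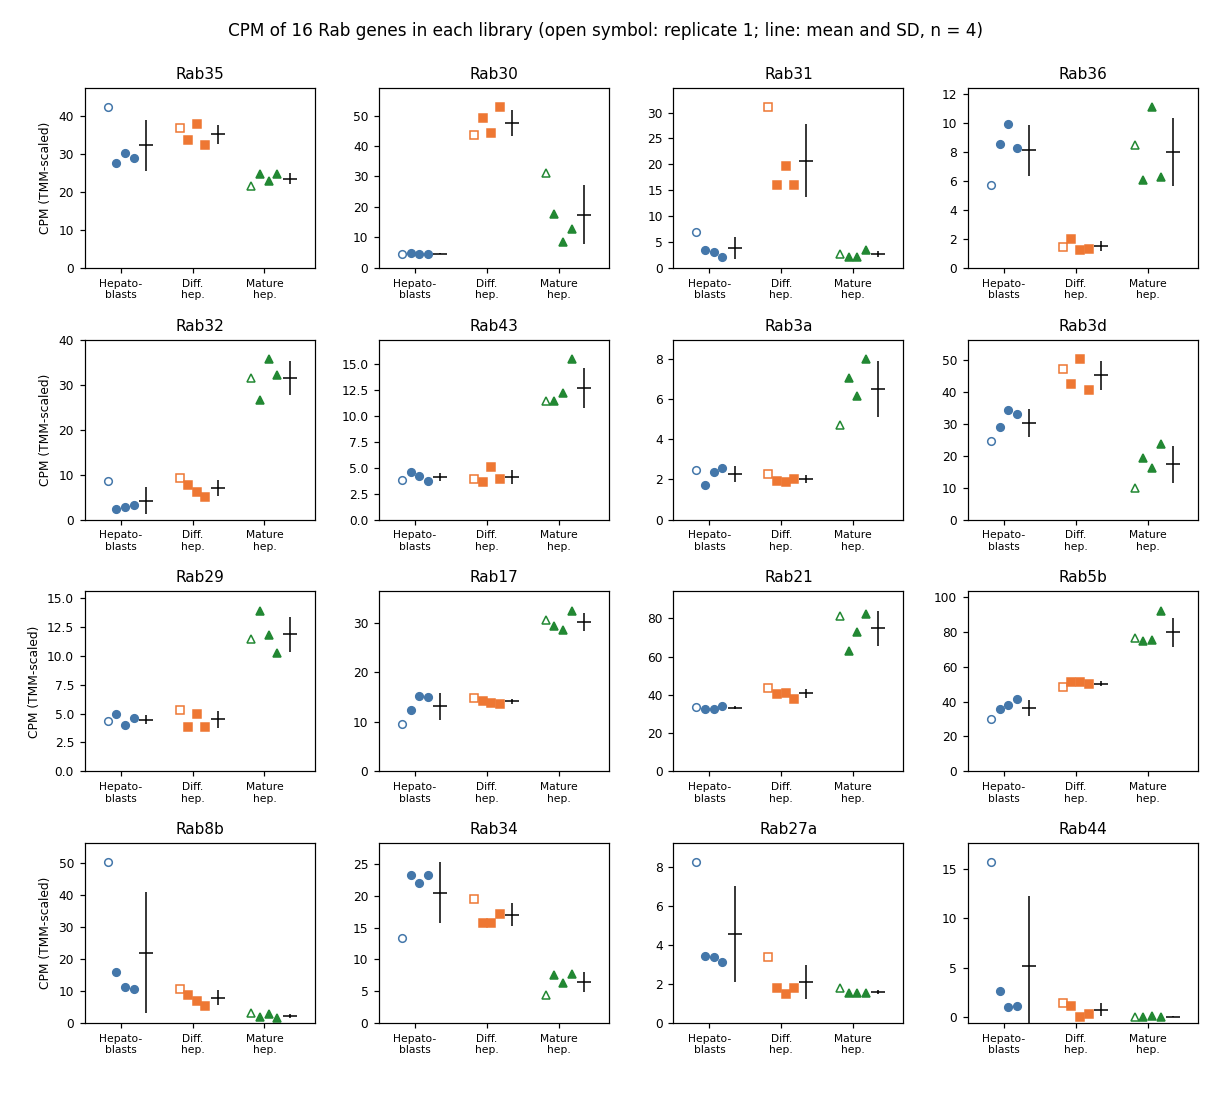
CPM (TMM-scaled) of 16 Rab genes in each of the 12 libraries, 1 panel a gene with its own linear axis; open symbols are replicate 1, and the line beside each group is its mean with SD (n = 4). Rab30, Rab31 and Rab36 set Diff. hepatocytes apart, Rab32, Rab43, Rab29, Rab17, Rab21 and Rab5b set mature hepatocytes apart, and the open hepatoblast symbol is far above its group for Rab8b, Rab27a and Rab44.

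The third comparison asked where cells differentiated in culture differed from the adult cell. Culture, age, sex and isolation cannot be told apart in it. Of 53 members 10 were higher and 6 lower in Diff. hepatocytes, 30.2%, where 35.8% of all genes were called, 20.2% higher and 15.6% lower. Among the higher members, Rab25 and Rab26 held over 10 counts only in Diff. hepatocytes libraries. They entered the test only through the group where they are high. The median log2 fold change was -0.11 over the members and 0.09 over all genes, and 38 of 53 members did not overlap, against 61.6% of all genes. This comparison shares its libraries with both others, so values are given side by side and not as independent evidence. With library totals the split was 13 higher and 4 lower.

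Rab31 had the largest difference among the members over 2 CPM. Its mature libraries held 2.74, 2.18, 2.16 and 3.35 CPM, all far below the 16.0 to 31.0 CPM in Diff. hepatocytes (2.99 ± 0.35, adjusted p = 6.93e-06). Mesenchymal and stellate marker sums were 1179 to 2921 CPM in Diff. hepatocytes and 51.2 to 74.0 CPM in mature hepatocytes, and their part in this value and in that of Rab34 was not tested. Macrophage marker sums were 26.9 to 204 CPM in Diff. hepatocytes and 129 to 256 CPM in mature hepatocytes, and their part was not tested either. Rab30 was higher in culture than in the adult cell as well (1.44 ± 0.28, adjusted p = 4.93e-04), and its highest mature library, 31.0 CPM, stayed below its lowest cultured library, 43.7 CPM. Rab8b was called higher (1.82 ± 0.50, adjusted p = 0.00569). The call was lost without Diff. hepatocytes replicate 1 or 2 or mature hepatocytes replicate 2, 3 or 4, at adjusted p of 0.0124 to 0.0217.

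Paralogs moved in opposite directions in 2 subfamilies. Rab3d, a Rab of exocrine secretory granules, was at 47.4, 42.6, 50.4 and 40.7 CPM in Diff. hepatocytes and 9.94, 19.3, 16.3 and 23.7 CPM in mature hepatocytes, with no overlap (1.39 ± 0.20, adjusted p = 4.88e-05). Rab3a was at 2.29, 1.94, 1.86 and 2.02 CPM in Diff. hepatocytes, below the 4.73 to 8.00 CPM of the mature libraries (-1.68 ± 0.20, adjusted p = 9.09e-06). Rab34 was at 19.5, 15.8, 15.7 and 17.2 CPM in Diff. hepatocytes and higher than in mature hepatocytes (1.39 ± 0.20, adjusted p = 4.42e-05). Rab36 was at 8.50, 6.09, 11.1 and 6.27 CPM in mature hepatocytes and lower in Diff. hepatocytes (-2.42 ± 0.25, adjusted p = 2.07e-06). In none of these 4 genes did the 2 groups overlap. Under library totals the 4 differences kept their direction, at 1.92 for Rab3d, -1.15 for Rab3a, 1.92 for Rab34 and -1.90 for Rab36.

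The other lower members in Diff. hepatocytes were Rab32 (-2.16 ± 0.34, adjusted p = 9.85e-05), Rab43 (-1.62 ± 0.16, adjusted p = 8.83e-07), Rab29 (-1.40 ± 0.15, adjusted p = 3.09e-06) and Rab17 (-1.09 ± 0.13, adjusted p = 7.16e-06). Rab32 was at 9.20, 7.74, 6.17 and 5.08 CPM in the cultured libraries. Rab43 was at 3.89, 3.57, 5.02 and 3.89 CPM, Rab29 at 5.27, 3.87, 4.97 and 3.84 CPM and Rab17 at 14.9, 14.2, 13.8 and 13.7 CPM. Each of the 4 lay below all mature libraries, and against hepatoblasts none of the 4 was called. Under library totals Rab17 and Rab29 no longer reached the fold limit, at -0.56 and -0.88.

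The remaining higher members were low in both groups. Rab27b had 2.31 to 4.62 CPM in Diff. hepatocytes against 0.117 to 0.186 CPM in mature hepatocytes (4.57 ± 0.53, adjusted p = 5.45e-06), and Rab15 1.04 to 3.20 CPM against 0 to 0.117 CPM (4.71 ± 0.61, adjusted p = 1.61e-05). Rab6b was at 1.55 to 1.91 against 0.372 to 0.933 CPM. Rab26 held 32 counts over the cultured libraries and 1 over the mature libraries, a scaled ratio of 22.8 (exact 95% interval 3.8 to 927). Rab25, the epithelial relative of Rab11, held 5 to 14 counts a library in Diff. hepatocytes and 0 to 3 in mature hepatocytes, and lost its call without Diff. hepatocytes replicate 1, 2 or 4 or mature hepatocytes replicate 1, 3 or 4, at adjusted p of 0.0117 to 0.0287. Bile duct markers summed to 92.7 to 232 CPM in Diff. hepatocytes and 37.4 to 66.0 CPM in mature hepatocytes, and their part in these differences was not tested.

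With TMM scaling, some abundant members had close levels in the groups. Rab11a, the main Rab of recycling endosomes, was at 47.5 ± 3.67, 40.6 ± 3.14 and 42.8 ± 3.59 CPM in the 3 groups, in the order above, and its groups overlapped in each comparison. With library totals it was called lower in mature hepatocytes than in hepatoblasts (-1.001, adjusted p = 3.83e-07). Rab11b, at 42.7 ± 1.86, 38.9 ± 3.68 and 39.0 ± 5.63 CPM, overlapped likewise. Rab1a was at 225 ± 28.2, 195 ± 7.19 and 223 ± 5.21 CPM. For Rab24 and Rab2b, 62.4% and 59.3% of exon bases lie opposite exons of another gene, Prelid1 and Gm43766. The same holds for 708 exon bases of Rab6a, opposite Mrpl48. Since the strand setting of the counts was not given, how reads from these stretches entered the values of these genes is uncertain.

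**Figure D4:**
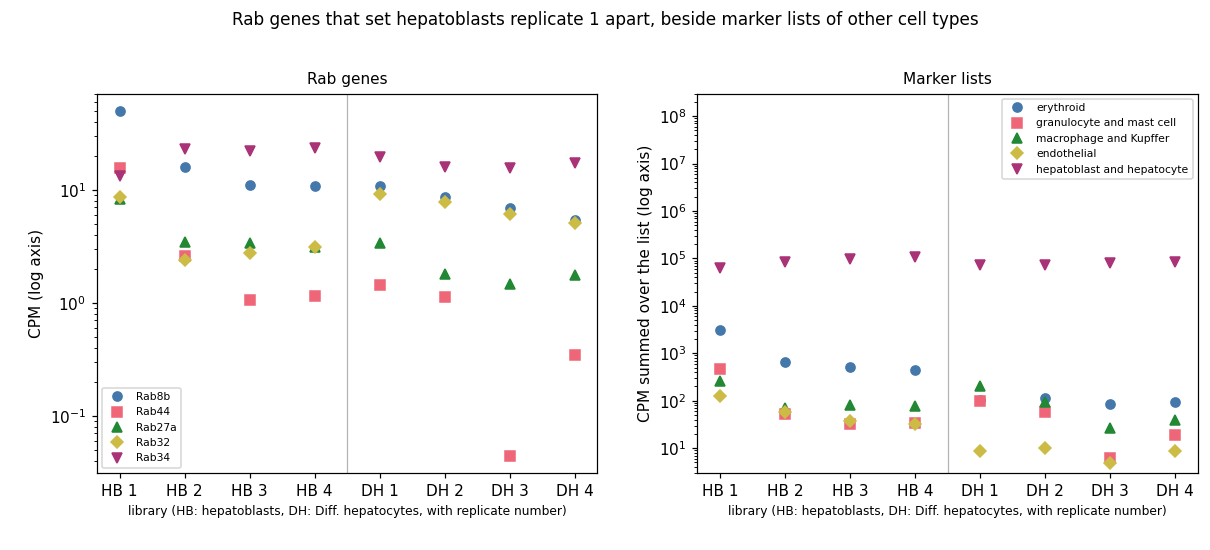
Left, CPM on a log axis of the 5 Rab genes that set hepatoblasts replicate 1 (HB 1) apart, in the 8 hepatoblast and Diff. hepatocytes libraries. Right, CPM summed over marker lists in the same libraries: HB 1 has the highest erythroid, granulocyte, macrophage and endothelial sums of the hepatoblasts and the lowest hepatoblast and hepatocyte sum.

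Of the 14 Rabs in the siRNA screen, none was called between hepatoblasts and Diff. hepatocytes in the main fit. That fit used edgeR, TMM, all 12 libraries and group as the only term. In mature hepatocytes against hepatoblasts 2 were higher, Rab17 and Rab21, and 3 lower, Rab8b, Rab27a and Rab27b. In Diff. against mature hepatocytes 2 were higher, Rab8b and Rab27b, and Rab17 was lower. As shares of the 14 these were 0%, 35.7% and 21.4%, beside 28.9%, 44.8% and 35.8% of all genes. Their medians were -0.01, -0.06 and -0.04 on the log2 scale. DESeq2 and scaling by library totals called Rab8b and Rab27a lower in the first comparison, and library totals also called Rab13 lower. An edgeR fit with replicate number as a further term called Rab8b and Rab27a lower and Rab27b higher in that comparison. Without hepatoblasts replicate 1, Rab27b was called higher (1.42, adjusted p = 0.00382), and Rab8b and Rab27a were not called. The screen addressed the formation of bile canaliculi. Per the study, its genes were candidates picked for their part in regulating cell polarity. Whether these RNA data also guided that choice was not examined. By the methods, the E14.5 cells and the culture protocol of the RNA differ from those of most other experiments. The cells screened can therefore differ from those sequenced.

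Rab proteins need a lipid anchor and carriers to cycle on and off membranes. Of 12 genes listed for protein prenylation and this cycle, 1 was higher in Diff. hepatocytes than in hepatoblasts. It was Rabac1, a membrane protein that binds prenylated Rabs, at 63.6 ± 6.93 against 26.1 ± 1.62 CPM (1.28 ± 0.10, adjusted p = 1.56e-07). In mature hepatocytes Rabac1 was higher as well, at 77.3 ± 7.71 CPM (1.56 ± 0.10, adjusted p = 9.38e-09), and Chml and Fntb were lower. Chml, one of the 2 escorts that present Rabs for prenylation, was at 8.79 ± 0.439 CPM in hepatoblasts, 12.2 ± 1.03 in Diff. hepatocytes and 2.82 ± 0.389 in the adult cells, while the other escort, Chm, was at 18.4, 15.5 and 16.2 CPM and not called. Fntb, a subunit of farnesyltransferase, an enzyme not specific to Rabs, was at 14.4 ± 1.94 CPM in hepatoblasts and 4.82 ± 0.824 in mature hepatocytes. Chml and Fntb were the 2 machinery genes called higher in Diff. than in mature hepatocytes. The called shares of the list, 8.33%, 25% and 16.7%, stand beside 28.9%, 44.8% and 35.8% of all genes. Rabggta, a subunit of the enzyme that prenylates Rabs, and Gdi2, which takes Rabs off membranes, were not called in any comparison. Under library totals Rabac1 was not called against hepatoblasts in either group.

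Effectors are the proteins that active Rabs recruit. Of 50 effector genes tested from a list of 53, 12 were higher and 3 lower in Diff. hepatocytes against hepatoblasts, 12 higher and 12 lower in mature hepatocytes against hepatoblasts, and 12 higher and 8 lower in Diff. against mature hepatocytes. As shares of those tested these were 30.0%, 48.0% and 40.0%, beside the 28.9%, 44.8% and 35.8% of all genes. Myo5c, a motor of epithelial exocytic carriers, was at 3.88 ± 1.20 CPM in hepatoblasts, 24.6 ± 2.84 in Diff. hepatocytes and 0.0627 ± 0.0508 in the adult cells. It was called in all 3 comparisons, at 2.66 ± 0.22, -5.83 ± 0.41 and 8.49 ± 0.38. Mlph, which couples Rab27a to myosin Va, was at 0.0737 ± 0.0733, 7.17 ± 4.54 and 0.411 ± 0.239 CPM and was higher in Diff. hepatocytes than in either other group. Bile duct markers summed to 26.9 to 35.7, 92.7 to 232 and 37.4 to 66.0 CPM in the same order of groups, and their part in the values of Myo5c and Mlph was not tested. Myo5a itself was at 5.97 ± 2.67, 13.6 ± 5.35 and 0.723 ± 0.200 CPM, while Myo5b, called in no comparison, was at 50.6 ± 10.8, 38.3 ± 1.45 and 49.2 ± 3.70 CPM.

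Effectors of secretory Rabs moved in both directions in the adult cell. Exph5, at 4.68 ± 0.990 CPM in hepatoblasts and 37.4 ± 9.24 in mature hepatocytes, and Sytl1, at 0.764 ± 0.239 and 8.91 ± 3.28 CPM, were higher (2.998 ± 0.21 and 3.53 ± 0.33), and were named after their values were seen. Sytl5 was at 9.76 ± 2.37 CPM in hepatoblasts and 0.362 ± 0.249 in mature hepatocytes, lower there (-4.73 ± 0.43, adjusted p = 3.08e-07), and Rims2 at 3.79 ± 0.992 and 0.292 ± 0.169 CPM (-3.70 ± 0.39, adjusted p = 1.49e-06). Both were also higher in Diff. than in mature hepatocytes, at 4.06 and 4.08. Fscn1, an actin-bundling protein that Rab35 recruits, was at 115 ± 21.4 CPM in hepatoblasts, 26.0 ± 14.1 in Diff. hepatocytes and 4.59 ± 1.16 in the adult cells, lower in both than in hepatoblasts (-2.15 ± 0.30 and -4.65 ± 0.35). Unc13d, which primes granules of blood cells for release, was at 10.2 ± 11.6 CPM in hepatoblasts, an SD above its mean, and at 1.65 ± 0.595 and 0.879 ± 0.346 CPM in the other 2 groups. It was lower in both (-2.62 and -3.54), at -1.42 and -2.35 without hepatoblasts replicate 1. Rab11fip5, a partner of Rab11, was higher in Diff. hepatocytes than in hepatoblasts (1.92 ± 0.27, adjusted p = 3.82e-05). Myrip and Bicd1 stayed under 2 CPM in all groups.

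Promoters were read from RefSeq on GRCm38.p6 as the 250 bases before the start, and 48 of the 59 members had an entry. CG dinucleotides, the sites of DNA methylation, had a median of 16 a promoter over these 48 and of 10 over 16505 promoters. At least 10 CG stood in 72.9% of the Rab promoters and in 52.4% of all. The 9 members at 10 RPKM or more in every group had a median of 18, and the 14 members under 1 RPKM in every group 9.5. TATAAA on either strand occurred in 8.33% of the Rab promoters and 11.9% of all. Rab35, with 39 CG, was near the top of the family, and Rab17 with 3 and Rab32 with 5 were at its low end. These counts describe the windows and were not tested against the levels. The promoters of 3 genes whose levels set the groups apart are shown, all on the minus strand and free of annotated exons, with CG in capitals: Rab31, which rose in culture, Rab43, which rose in the adult cell, and Rab8b, which fell in it.
Rab31 (chr17:65772753-65773002, 12 CG): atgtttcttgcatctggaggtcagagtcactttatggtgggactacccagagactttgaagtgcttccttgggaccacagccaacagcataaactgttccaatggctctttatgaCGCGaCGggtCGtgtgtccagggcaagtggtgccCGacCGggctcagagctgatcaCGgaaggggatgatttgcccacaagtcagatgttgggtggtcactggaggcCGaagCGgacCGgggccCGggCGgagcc
Rab43 (chr6:87812165-87812414, 15 CG): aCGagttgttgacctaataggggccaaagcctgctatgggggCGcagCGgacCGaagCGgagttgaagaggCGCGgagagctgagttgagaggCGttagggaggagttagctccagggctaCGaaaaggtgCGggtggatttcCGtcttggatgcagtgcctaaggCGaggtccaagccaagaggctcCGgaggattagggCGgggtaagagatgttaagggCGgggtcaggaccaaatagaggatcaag
Rab8b (chr9:66919706-66919955, 20 CG): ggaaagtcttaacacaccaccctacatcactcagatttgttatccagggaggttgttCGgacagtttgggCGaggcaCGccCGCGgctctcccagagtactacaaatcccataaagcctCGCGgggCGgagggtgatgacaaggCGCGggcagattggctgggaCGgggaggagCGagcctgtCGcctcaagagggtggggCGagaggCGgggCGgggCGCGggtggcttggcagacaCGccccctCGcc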

How the data were processed

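Total RNA of 12 libraries was selected for poly(A), prepared as strand-specific libraries and sequenced as single reads. Per the labels and methods, the authors checked reads with FastQC 0.11.2, mapped them to GRCm38 and counted Ensembl 92 genes with STAR 2.5.2b. Picard 2.10.2 was used to assess duplicates. The deposited values are raw counts, and the strand setting behind them was not given in the sources used here. The p-values measure the spread between 4 biological replicates a group.

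Symbols, exons and positions came from GENCODE M21, which held 53620 of the 53715 genes. Members and lists were chosen with earlier results of these data known. A gene was tested (17779 were) if 1 or more libraries held over 10 of its counts, as in the study's methods, and all 12 libraries were fitted with edgeR 4.0.16 (R 4.3.3), quasi-likelihood, TMM and group as the only term. Adjusted p-values are Benjamini-Hochberg over all genes tested. A gene was called at adjusted p under 0.01 and a log2 fold change over 1 in size. SE is the log2 fold change over the root of F. The study used DESeq2 1.22.2; here DESeq2 1.42.0 was an alternative. The fit was tested on simulated data. RPKM divide TMM-scaled CPM by the length of the exon union of a gene. Values in every library are given for Rab35 and, in each comparison, for up to 8 called members a direction with the largest changes, a mean of 2 CPM or more and groups that did not overlap, and for paralogs called in opposite directions. Up to 6 called genes a list are named for machinery and effectors. Figures were drawn with matplotlib 3.10.9 (Python 3.11.15).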

Additional observations from a re-analysis of the deposited data

Results flagged for a closer look

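Each Rab gene tested was examined in each group of 4 libraries for a single library far from the other 3, by Dixon's ratio against its 95% critical value of 0.829. Of 159 groups examined, 12 held such a library. An expectation of 5%, or 7.95, would hold for normal values, and CPM need not be normal. The genes also share their libraries, so the flags are not independent, and 12 was not weighed against 7.95. Hepatoblasts replicate 1 was that library in 5 of the 12. There Rab44 was at 15.7 CPM against 1.07 to 2.60 in the others, Rab8b at 50.2 against 10.8 to 16.0, Rab27a at 8.25 against 3.15 to 3.43 and Rab32 at 8.64 against 2.39 to 3.15, while Rab34 was at 13.4 CPM against 22.1 to 23.3. The same library had the highest erythroid, granulocyte and macrophage marker sums of its group, and their part was not tested.

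The other 7 were spread over 6 libraries. In mature hepatocytes Rab27a was at 1.78 CPM in replicate 1 against 1.52 to 1.55, Rab40c at 13.9 in replicate 2 against 16.9 to 17.0, and Rab5b at 92.3 in replicate 4 against 74.8 to 76.6. Rab26 was at 0.0641 CPM in mature hepatocytes replicate 2 and Rab44 at 0.117 CPM in replicate 3, which are 1 and 2 counts where the other libraries held 0. With the others at 0, any count is set apart by this rule, whatever its size. In Diff. hepatocytes Rab24 was at 5.73 CPM in replicate 3 against 7.49 to 7.52, and Rab4a at 33.3 in replicate 4 against 35.9 to 36.2.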

How the results depend on the processing

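Counts are given as higher and lower calls, with the value reported in the main text first. With library totals, Rab calls in Diff. hepatocytes against hepatoblasts went from 4 and 1 to 4 and 6, machinery from 1 to 0 higher and effectors from 12 and 3 to 7 and 6, and Rab35 turned from 0.13 to -0.21 (adjusted p = 0.258). In mature hepatocytes against hepatoblasts they were 2 and 16 for Rab genes, 0 and 5 for machinery and 6 and 24 for effectors, and in Diff. against mature hepatocytes 4 effectors were lower. Rab35 was then called at -1.32 and 1.11. With totals that leave out the 50 most abundant genes, 3 Rab genes were lower in the first comparison. In the second 2 were higher, no machinery gene was (0), and effectors were 6 and 22. In the third 4 effectors were lower, and Rab35 was at -1.13 and 1.14.

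With the fold limit inside the test (glmTreat), the first comparison had 2 Rab genes higher and effectors 5 and 1, the second had Rab genes 5 and 5, and the third had 4 Rab genes and 1 machinery gene higher and 4 effectors lower. At adjusted p under 0.05 and no fold limit, the first had 19 and 11 Rab genes, 4 and 2 machinery genes and 19 and 14 effectors. The second had 24 Rab and 6 machinery genes higher and effectors 20 and 23, and the third 16 and 21 Rab genes, 4 and 5 machinery genes and 18 effectors lower. In the first comparison DESeq2 called 3 Rab genes lower, and a filter of 1 count 4.

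Leaving out 1 replicate gave 4 to 7 Rab genes higher and 1 to 3 lower in the first comparison, 1 to 2 machinery genes higher in the second and 1 to 2 in the third. Without hepatoblasts replicate 1, the first comparison had 7 higher. Without both libraries numbered 1, chosen after seeing the data, 1 machinery gene was higher in the third. Rab26 reached -5.28 and 6.12 without mature hepatocytes replicate 2. The cause was not tested.

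Deviations of libraries with equal numbers correlated at -0.06 to 0.32 in the first comparison, -0.03 to 0.09 in the second and -0.08 to 0.09 in the third. Since not every pair passed 0.1, the numbers were not taken to pair the libraries, although in the first comparison 3 of 4 numbers matched their own number best. With the replicate block, Rab calls were 5 and 5 in the first comparison, where Rab8b, Rab27a, Rab38 and Rab44 were then called lower and Rab27b higher, 8 and 9 in the second and 10 and 6 in the third.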
